A study of Homo sapiens with 12 samples.

Results

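The 10 genes described here are those of the hypoxia-inducible factor (HIF) system: the alpha subunits HIF1A and EPAS1, their partner ARNT, the prolyl hydroxylases EGLN1, EGLN2 and EGLN3, the asparaginyl hydroxylase HIF1AN, and the target genes VEGFA, ADM and BNIP3. They were chosen by name, as the rows of the count table whose Ensembl identifiers carry these symbols, and all 10 were found among 58288 identifiers. The cells were HL-60/S4, a human promyelocytic leukaemia line, grown in medium supplemented with calcium and used at passage 8. The 12 RNA libraries, each made from a flask of its own, formed 4 groups of 3: promyelocytes (undifferentiated cells) with vehicle (water), promyelocytes with 16 ng/ml TNF-α for 2 h, granulocytes (cells given 1 µM all-trans retinoic acid, ATRA, for 4 days) with vehicle, and granulocytes with the same TNF-α treatment. The cell types were treated in separate experiments, so that cell type and experiment cannot be told apart, and levels between cell types are described without a test. The paper also states that undifferentiated cells were suspended at a higher density than differentiated cells before treatment. This difference cannot be told apart from cell type either. All 4 groups are 1 cell line, which limits them as a model of blood cells.

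HIF is a pair of proteins, an alpha subunit bound to ARNT, that binds the short sequence called the hypoxia response element and turns on genes for glucose use, vessel growth and mitochondrial turnover. When oxygen is plentiful, the EGLN enzymes hydroxylate prolines of the alpha subunit, the VHL ligase recognises them, and the subunit is degraded, while HIF1AN hydroxylates an asparagine and blocks the binding of co-activators. The regulation of HIF is therefore known mainly at the protein level, which these RNA libraries do not measure, and in myeloid cells HIF1A is also known to be transcribed in response to NF-κB, the factor that TNF-α activates.

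Library totals ranged from 22829189 to 31895061 counted read pairs. Used here as a floor, 3 counts correspond to 0.0945 to 0.136 CPM (counts scaled to a common library size). The summed level of 5 promyelocyte markers was 7320 to 8140 CPM in promyelocytes with vehicle and 2130 to 2340 CPM in granulocytes with vehicle, and that of 7 granulocytic markers was 160 to 168 and 4820 to 5090 CPM. With TNF-α the first of these sums was 6060 to 6960 CPM in promyelocytes, below the vehicle libraries, and 2140 to 2350 CPM in granulocytes, and the second was 267 to 282 and 5430 to 5770 CPM, above them. The higher second sum came mainly from CYBB in promyelocytes (mean 113 and 216 CPM) and from NCF1 in granulocytes (1220.0 and 1950.0 CPM), while the means of ITGAM, CD38 and CSF3R were lower with TNF-α in granulocytes. The summed level of 6 monocyte and macrophage markers was 49.2 to 51.3 CPM in granulocytes with vehicle and 30.1 to 34.0 CPM with TNF-α, nearly all of it CSF1R (mean 49.7 and 32.2 CPM), and MARCO was at 0 in every library. The lymphoid markers summed to at most 15.2 CPM and the erythroid and endothelial markers to at most 7.21 CPM in any library. The part of these shifts in the results was not tested. All 10 NF-κB response genes examined as controls of the treatment rose in both cell types.

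The start regions of 4 members are shown because their genes behaved differently: HIF1A rose with TNF-α in both cell types, ADM rose in granulocytes, EGLN1 fell in granulocytes, and BNIP3 did not pass the test in either. The windows are from RefSeq on GRCh38.p14, 250 bases before to 50 bases from the transcription start, written 5′ to 3′ on the strand of the gene. The RefSeq start can lie away from the 5′ end of the counted gene, as for EGLN1 (counted at chr1:231363751-231425044). HIF1A and EGLN2 had 2 windows each, and the window nearest to that end was used. HIF1A is at chr14:61695263-61695562 on the plus strand, ADM at chr11:10304823-10305122 on the plus strand, EGLN1 at chr1:231422238-231422537 on the minus strand and BNIP3 at chr10:131981874-131982173 on the minus strand. Capitals mark the core of the hypoxia response element, ACGTG or GCGTG on either strand.
HIF1A: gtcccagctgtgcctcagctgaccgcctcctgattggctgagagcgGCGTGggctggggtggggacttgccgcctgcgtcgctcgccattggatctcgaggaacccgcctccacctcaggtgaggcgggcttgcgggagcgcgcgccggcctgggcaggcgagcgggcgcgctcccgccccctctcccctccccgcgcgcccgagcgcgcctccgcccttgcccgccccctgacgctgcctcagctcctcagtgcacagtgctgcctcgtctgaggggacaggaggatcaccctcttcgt
ADM: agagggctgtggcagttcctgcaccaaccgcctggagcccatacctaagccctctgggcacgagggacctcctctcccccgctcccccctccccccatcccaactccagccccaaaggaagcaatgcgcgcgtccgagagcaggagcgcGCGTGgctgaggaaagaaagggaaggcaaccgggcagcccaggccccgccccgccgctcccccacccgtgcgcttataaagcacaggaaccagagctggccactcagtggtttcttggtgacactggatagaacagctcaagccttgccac
EGLN1: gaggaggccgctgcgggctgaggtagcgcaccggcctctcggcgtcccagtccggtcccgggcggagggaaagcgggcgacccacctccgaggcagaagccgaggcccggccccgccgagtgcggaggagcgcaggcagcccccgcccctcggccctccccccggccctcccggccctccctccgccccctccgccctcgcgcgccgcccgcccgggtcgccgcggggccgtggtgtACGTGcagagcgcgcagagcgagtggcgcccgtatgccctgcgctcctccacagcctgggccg
BNIP3: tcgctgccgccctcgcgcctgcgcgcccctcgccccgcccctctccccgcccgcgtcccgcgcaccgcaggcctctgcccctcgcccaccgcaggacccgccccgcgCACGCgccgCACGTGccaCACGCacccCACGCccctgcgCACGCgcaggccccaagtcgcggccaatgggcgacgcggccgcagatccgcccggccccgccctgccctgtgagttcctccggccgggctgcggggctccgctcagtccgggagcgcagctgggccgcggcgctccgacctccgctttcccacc

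BNIP3 held 6 matches to the core, counting both strands, of which a pair overlaps in 1 CACGTG, and 0.923% of 35116 RefSeq windows of this length held at least as many. HIF1A, ADM and EGLN1 held 1 match each, at -204, -101 and -13 from the start, as did EPAS1 at -117, and EGLN2 held 2 that overlap in 1 CACGTG. The ARNT, HIF1AN and EGLN3 windows held 0. A match of either form occurred in 48.4% of all windows, so that 1 match is common. The general NF-κB consensus, GGGRNNYYCC (R is A or G, Y is C or T, N is any base), was searched on both strands and was in 11.3% of windows. Among the 9 member windows searched (VEGFA was not among them) it was in that of ARNT, at -161. Sites that depart from this pattern were not counted. The HIF1A window holds gggacttgcc, which departs from it at 1 base. Such near matches were not searched in the other windows, and how common they are was not measured. These are matches of letters in the reference, and no binding was measured here.

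In promyelocytes TNF-α raised HIF1A and VEGFA, and in granulocytes it raised HIF1A, EPAS1, EGLN2, VEGFA and ADM and lowered ARNT, EGLN1 and HIF1AN. In promyelocytes 8 members had enough counts for the test and 2 passed it at an adjusted p under 0.05 (edgeR quasi-likelihood test, Benjamini-Hochberg over all genes tested), where 14.8% of all genes tested passed, 8.15% higher and 6.65% lower. In granulocytes 9 were tested and 8 passed, 5 higher and 3 lower, where 49.2% of all genes passed, 24.4% higher and 24.8% lower. The count of members that fell in promyelocytes was 0 in edgeR, also at an unadjusted p under 0.05, and 0 in DESeq2. The libraries of the 2 treatments did not overlap for 5 members in promyelocytes, 2 above and 3 below vehicle, against 30.9% of all genes (13.7% above and 17.1% below), and for 8 in granulocytes, 5 above and 3 below, against 55.1% (28.4% above and 26.7% below). An exact permutation test of 3 against 3 libraries cannot go below p = 0.1, and shares and ratios were described without a test. In bulk RNA, fewer cells with a transcript and less of it per cell cannot be told apart.

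**Figure D1:**
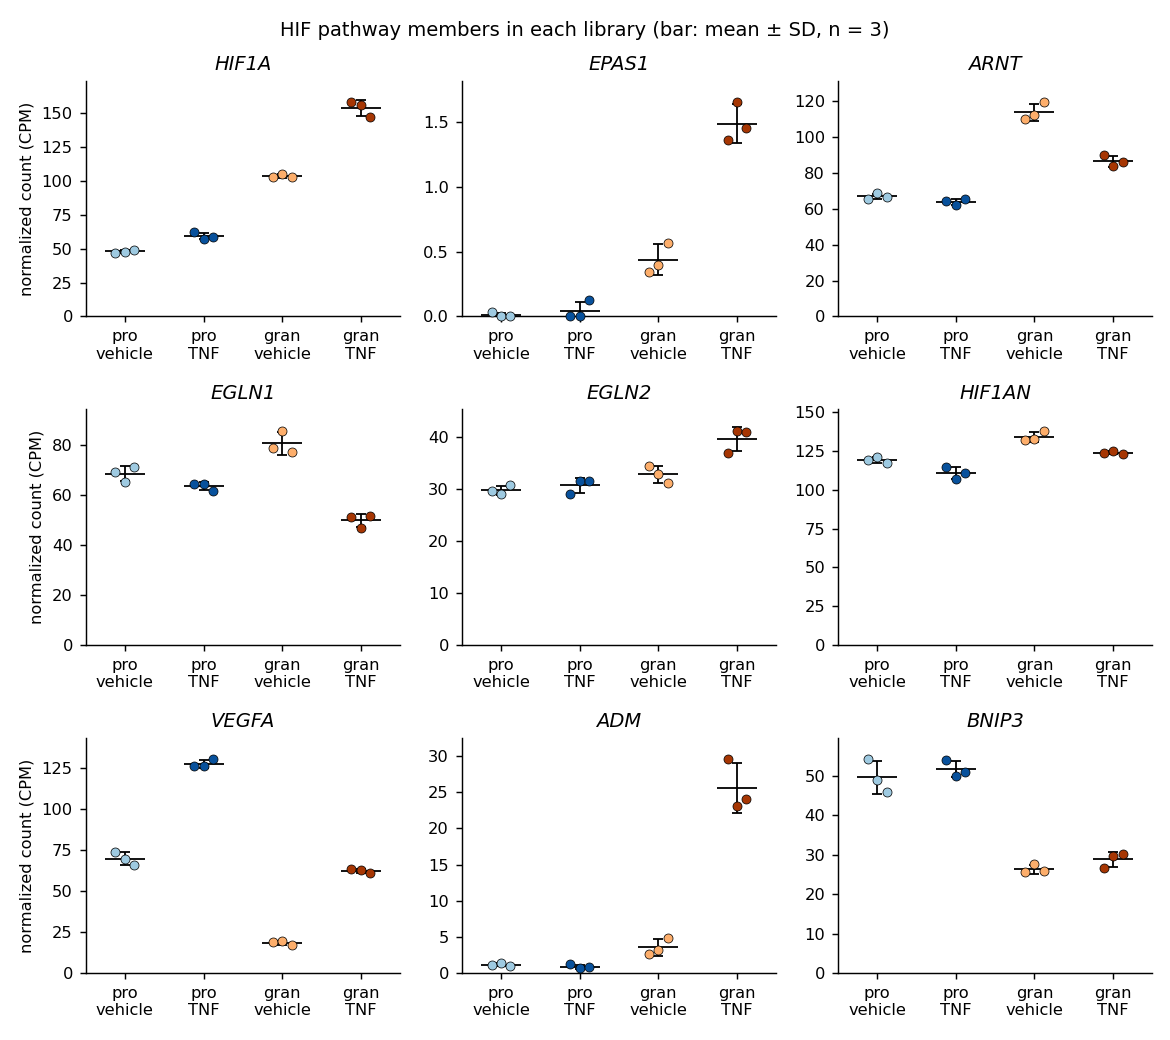
Normalized counts (CPM, linear axes from 0) of 9 members in each of the 12 libraries, with the mean and SD of 3 libraries per group; pro, promyelocytes; gran, granulocytes. EGLN3 is left out because it had 0 counts in every library. HIF1A stepped up from 48.0 to 59.5 CPM in promyelocytes and from 104 to 154 CPM in granulocytes, whereas EGLN1 went from 80.7 to 49.8 CPM in granulocytes.

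HIF1A, the oxygen-regulated subunit present in most cells (ENSG00000100644.16, hg38 chr14:61695513-61748259, plus strand), stood at 47.2, 47.9 and 48.8 CPM in promyelocytes with vehicle and at 62.1, 57.4 and 59.0 CPM with TNF-α. In granulocytes it stood at 103, 105 and 103 CPM with vehicle and at 158, 156 and 147 CPM with TNF-α. The 4 groups did not overlap, and every granulocyte library was above every promyelocyte library. The increase was 0.33 on the log2 scale in promyelocytes (SE 0.0615, adjusted p = 0.000644, edgeR) and 0.55 in granulocytes (SE 0.0488, adjusted p = 4.18e-12). The granulocyte response was the larger by 0.26 (SE 0.0743, adjusted p = 0.0119), but this difference was 0.17 with adjusted p = 0.214 when genes of low count were kept. The vehicle level was 2.16-fold higher in granulocytes than in promyelocytes. Antisense transcripts overlap HIF1A, and counting kept the strands apart: HIF1A-AS1 had 0 to 12 counts per library.

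EPAS1, the second alpha subunit, also called HIF-2α and known from vessel and some myeloid cells, was barely present. In promyelocytes its counts were 1, 0 and 0 with vehicle and 0, 0 and 4 with TNF-α, so that 5 of 6 libraries were under the floor and no fold is given. In granulocytes the counts were 9, 12 and 17 with vehicle and 30, 46 and 32 with TNF-α, or 0.438 ± 0.117 against 1.48 ± 0.149 CPM (SD, n = 3). The granulocyte groups did not overlap, and the increase was 1.73 (SE 0.334, adjusted p = 4.13e-05). Per kilobase of exon, HIF1A made up at least 99.3% of the 2 alpha subunit transcripts in every group mean.

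ARNT, the constitutive beta subunit (chr1:150809705-150876768, minus strand), moved against HIF1A in granulocytes. Its level there was 110.0, 112 and 119 CPM with vehicle and 89.7, 83.5 and 85.7 CPM with TNF-α, without overlap. It fell by 0.41 on the log2 scale (SE 0.0516, adjusted p = 1.69e-08). In promyelocytes the libraries stood at 65.5, 68.5 and 66.4 CPM and at 64.2, 62.0 and 65.2 CPM, a change of -0.04 (SE 0.059, adjusted p = 0.697). The TNF-α response of ARNT was lower in granulocytes than in promyelocytes by -0.33 (SE 0.0763, adjusted p = 0.00186).

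**Figure D2:**
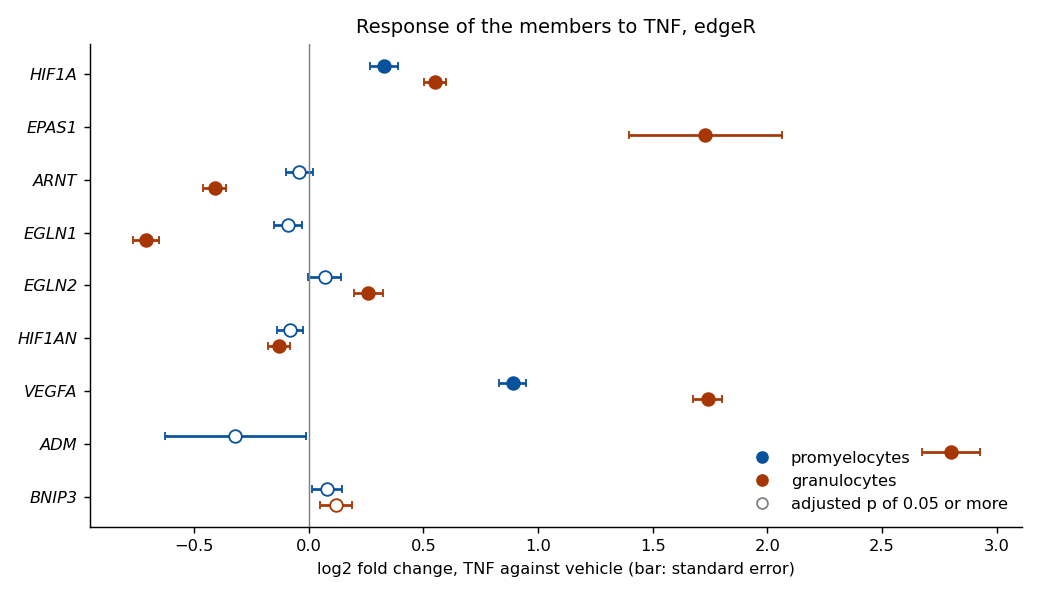
Log2 fold change of TNF-α against vehicle in promyelocytes and granulocytes from edgeR, with the standard error as bar; open circles did not pass an adjusted p of 0.05. EPAS1 is shown for granulocytes only. ADM lies farthest right at 2.80 in granulocytes, and EGLN1 farthest left of the granulocyte values at -0.71.

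EGLN1 encodes PHD2, known as the main oxygen sensor of the HIF system. In granulocytes it measured 79.0, 85.7 and 77.3 CPM with vehicle and 51.1, 46.7 and 51.7 CPM with TNF-α. All 3 treated libraries were below all 3 controls, and also below every promyelocyte library. EGLN1 fell by 0.71 (SE 0.0571, adjusted p = 3.15e-13) in granulocytes, whereas promyelocytes gave 69.4, 65.4 and 71.1 CPM with vehicle, 64.5, 64.5 and 61.7 CPM with TNF-α, and a change of -0.09 (SE 0.0604, adjusted p = 0.387). The 2 responses differed by -0.59 (SE 0.0837, adjusted p = 6.6e-06).

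EGLN2, which encodes PHD1, went the other way in granulocytes. Its libraries stood at 34.4, 32.9 and 31.2 CPM with vehicle and at 37.0, 41.2 and 40.9 CPM with TNF-α, without overlap, an increase of 0.26 (SE 0.0638, adjusted p = 0.000771). The lack of overlap depends on the scaling of the libraries. On raw library totals TNF-α replicate 1 (818 of 23800117 counts) lay below vehicle replicate 1 (894 of 24592785). In promyelocytes the groups overlapped, at 29.0 to 30.7 and 29.1 to 31.6 CPM (log2 change 0.07, SE 0.0707, adjusted p = 0.576). The difference between the responses, 0.23, did not pass the test (SE 0.094, adjusted p = 0.0794). EGLN2 shares 1792 exon bases, 27.25% of its length, with the readthrough gene RAB4B-EGLN2 on the same strand, where read pairs could not be assigned to either, so that its level may be understated.

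EGLN3 (PHD3), whose gene is a classical HIF target in other cells, had 0 counts in all 12 libraries. This allows a level of up to 0.0945 to 0.136 CPM per library. EGLN1 made up 67.6% ± 0.466 of the summed EGLN level per kilobase in promyelocytes with vehicle, 65.2% ± 1.44 with TNF-α, 69.0% ± 1.35 in control granulocytes and 53.2% ± 2.48 in treated ones (SD, n = 3). The share in treated granulocytes, 50.6% to 55.6%, lay below all other libraries, which ranged from 63.9% to 70.2%. Leaving the shared bases out of the EGLN2 length put the 4 means at 60.3%, 57.7%, 61.8% and 45.3%, so that EGLN1 or EGLN2 was the larger in treated granulocytes depending on this length. The ratio of HIF1A to EGLN1 per kilobase was 0.988 ± 0.0408 and 1.32 ± 0.0573 in promyelocytes without and with TNF-α, and 1.82 ± 0.0786 and 4.36 ± 0.345 in granulocytes, and no group overlapped another.

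**Figure D3:**
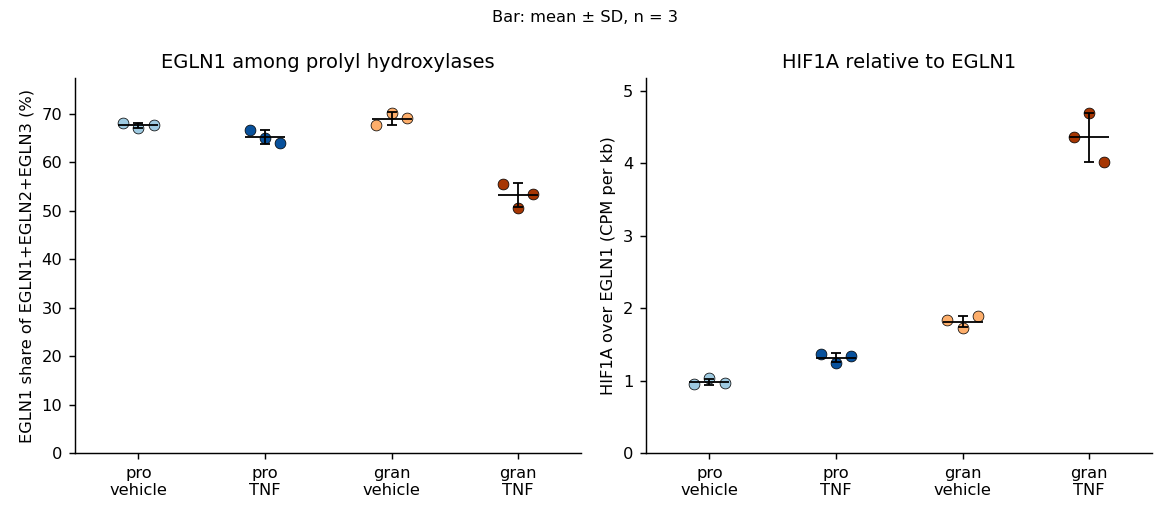
Left, the share of EGLN1 in the summed EGLN1, EGLN2 and EGLN3 level (%, from CPM per kilobase) per library; right, the ratio of HIF1A to EGLN1 (CPM per kilobase). Bars are mean and SD of 3 libraries; the share was 53.2% and the ratio 4.36 in granulocytes with TNF-α, apart from the other 3 groups.

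HIF1AN, which encodes the asparaginyl hydroxylase FIH, gave the smallest change among the members that passed. In granulocytes it was 132, 133 and 138 CPM with vehicle and 124, 125 and 123 CPM with TNF-α, a decrease without overlap of 0.13 on the log2 scale (SE 0.0482, adjusted p = 0.0242). This call rested on single libraries: the adjusted p was 0.0516 and 0.109 without vehicle replicate 2 or 3, and 0.0741 and 0.0672 without TNF-α replicate 2 or 3. It was also lost with GC and length offsets (0.0528). In promyelocytes HIF1AN was 117 to 121 and 107 to 115 CPM (log2 change -0.08, SE 0.0566, adjusted p = 0.428), again without overlap.

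VEGFA, the vascular growth factor and a standard HIF target, rose in both cell types. In promyelocytes it measured 73.7, 69.7 and 65.8 CPM with vehicle and 126, 126 and 130 CPM with TNF-α. In granulocytes it measured 18.8, 19.5 and 17.1 CPM with vehicle and 63.5, 62.6 and 61.1 CPM with TNF-α. The treated granulocytes thus stood below the untreated promyelocytes, and the vehicle level was 3.77-fold higher in promyelocytes. The increase was 0.89 in promyelocytes (SE 0.0584, adjusted p = 4.88e-10) and 1.74 in granulocytes (SE 0.0636, adjusted p = 1.66e-23), and the difference, 0.89, passed the test (SE 0.0849, adjusted p = 8.88e-09).

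ADM encodes adrenomedullin, a vasodilator peptide. Its counts were 35, 38 and 29 in promyelocytes with vehicle and 33, 19 and 28 with TNF-α, which overlap (1.18 ± 0.201 and 0.934 ± 0.285 CPM; log2 change -0.32, SE 0.307, adjusted p = 0.561). In granulocytes the counts were 68, 98 and 147 with vehicle and 653, 646 and 533 with TNF-α, or 3.59 ± 1.20 and 25.6 ± 3.44 CPM. Every treated granulocyte library was above every control, and the increase of 2.80 (SE 0.127, adjusted p = 1.67e-20) was the largest among the members. The responses of the 2 cell types differed by 3.16 (SE 0.335, adjusted p = 5.47e-08).

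BNIP3, a mitochondrial protein of mitophagy, did not pass the test in either cell type. Promyelocytes stood at 45.9 to 54.1 CPM with vehicle and 49.9 to 53.9 CPM with TNF-α (log2 change 0.08, SE 0.0664, adjusted p = 0.479). Granulocytes stood at 25.6, 27.6 and 25.8 CPM and at 26.7, 29.7 and 30.1 CPM (log2 change 0.12, SE 0.069, adjusted p = 0.16), and the groups overlapped. In vehicle libraries it was 1.88-fold higher in promyelocytes.

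The 2 responses differed for 5 of 9 members tested (HIF1A, ARNT, EGLN1, VEGFA and ADM), 3 with the higher and 2 with the lower response in granulocytes, where 24.0% of all genes tested differed (14.1% and 9.88%). The value of EPAS1, 1 of the other 4, rests on at most 4 counts per promyelocyte library and does not bear on whether its responses differ. Among vehicle libraries, granulocytes were above promyelocytes for 7 members and below for 2 (VEGFA and BNIP3), where 74.4% of all genes did not overlap, 37.3% above and 37.1% below. The levels of the members per kilobase in promyelocytes with vehicle ran from ARNT (10.3 ± 0.241 CPM per kilobase) through EGLN1 (9.44 ± 0.403), HIF1A (9.32 ± 0.156), BNIP3 (9.31 ± 0.786) and HIF1AN (8.53 ± 0.143) to VEGFA (4.83 ± 0.274), EGLN2 (4.53 ± 0.129) and ADM (0.434 ± 0.0739). The libraries of BNIP3 overlapped those of ARNT, EGLN1, HIF1A and HIF1AN, those of EGLN1 overlapped HIF1A, and those of VEGFA overlapped EGLN2, so that the order within these was not resolved. The order also depends on the lengths, which join all annotated exons of a gene. For VEGFA these were 14431 bases in 4 blocks, most of the gene (chr6:43770184-43786487), so that its level per kilobase may be understated. In treated granulocytes HIF1A led at 29.8 ± 1.05 CPM per kilobase, ahead of ARNT at 13.2 ± 0.486, ADM at 9.41 ± 1.27 and HIF1AN at 8.90 ± 0.0592, of which the last pair lay within their spread.

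Partners and regulators of HIF were also read from a list of 20 genes, of which 17 were tested in each cell type. In promyelocytes 1 rose and 2 fell (median log2 change 0.00, against -0.01 over all genes tested), and in granulocytes 8 rose and 2 fell (median 0.19). With the directions pooled, these 3 and 10 calls are near the shares over all genes, 14.8% and 49.2%. By direction, 8.15% of all genes rose and 6.65% fell in promyelocytes, and 24.4% rose and 24.8% fell in granulocytes. The 8 rises of 17 in granulocytes were thus above the share over all genes, and the 2 falls below it. The list was chosen with earlier results of these data known, and it was not tested as a set. SENP1, a SUMO protease that acts on HIF1A, rose by 0.30 in promyelocytes (SE 0.0613, adjusted p = 0.00173) and by 0.38 in granulocytes (SE 0.0573, adjusted p = 7.74e-07). CITED2, which competes with HIF for the co-activator p300, fell by 0.47 (SE 0.0695, adjusted p = 4.9e-05) and by 0.20 (SE 0.0534, adjusted p = 0.00172), and USP20, a deubiquitinase of HIF1A, fell by 0.36 and 0.47. SIAH2, a ubiquitin ligase of some EGLN enzymes, rose in granulocytes from 9.91 ± 1.18 to 22.9 ± 1.81 CPM (log2 change 1.19, SE 0.0897, adjusted p = 5.89e-14). Its relative SIAH1 rose there by 0.40. In promyelocytes SIAH2 was 39.3 ± 1.30 and 43.6 ± 2.23 CPM and passed the test only with GC and length offsets.

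Of 40 other hypoxia and HIF target genes, 32 were tested in promyelocytes and 30 in granulocytes. In promyelocytes 3 rose and 3 fell (median log2 change -0.05), where 8.15% of all genes tested rose and 6.65% fell. In granulocytes 8 rose and 16 fell (median -0.22, against -0.005 over all genes tested), where 24.4% of all genes rose and 24.8% fell. The 8 rises of 30 were near the share over all genes, and the 16 falls were above it. This list, chosen with earlier results of these data known, was not tested as a set. SLC2A1, the glucose transporter GLUT1, was 115 to 128 CPM in granulocytes with vehicle and 30.9 to 36.6 CPM with TNF-α, a fall of 1.88 (SE 0.0605, adjusted p = 3.29e-25). It was 79.2 to 91.2 and 68.9 to 78.5 CPM in promyelocytes. PFKFB3, an activator of glycolysis, rose in granulocytes from 82.1 ± 3.61 to 133 ± 8.02 CPM (log2 change 0.68), TFRC, the transferrin receptor, from 373 ± 3.02 to 581 ± 18.9 CPM (0.63), and MXI1, a MYC antagonist, fell from 26.2 ± 0.797 to 14.5 ± 0.981 CPM (-0.87), as did ANKZF1 from 42.8 ± 1.32 to 22.2 ± 1.73 CPM (-0.96). P4HA1, a collagen prolyl hydroxylase, rose by 0.25 in promyelocytes and 0.40 in granulocytes, while KDM3A, a histone demethylase, fell by 0.29 and 0.54 and NDRG1 by 0.56 and 0.32.

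**Figure D4:**
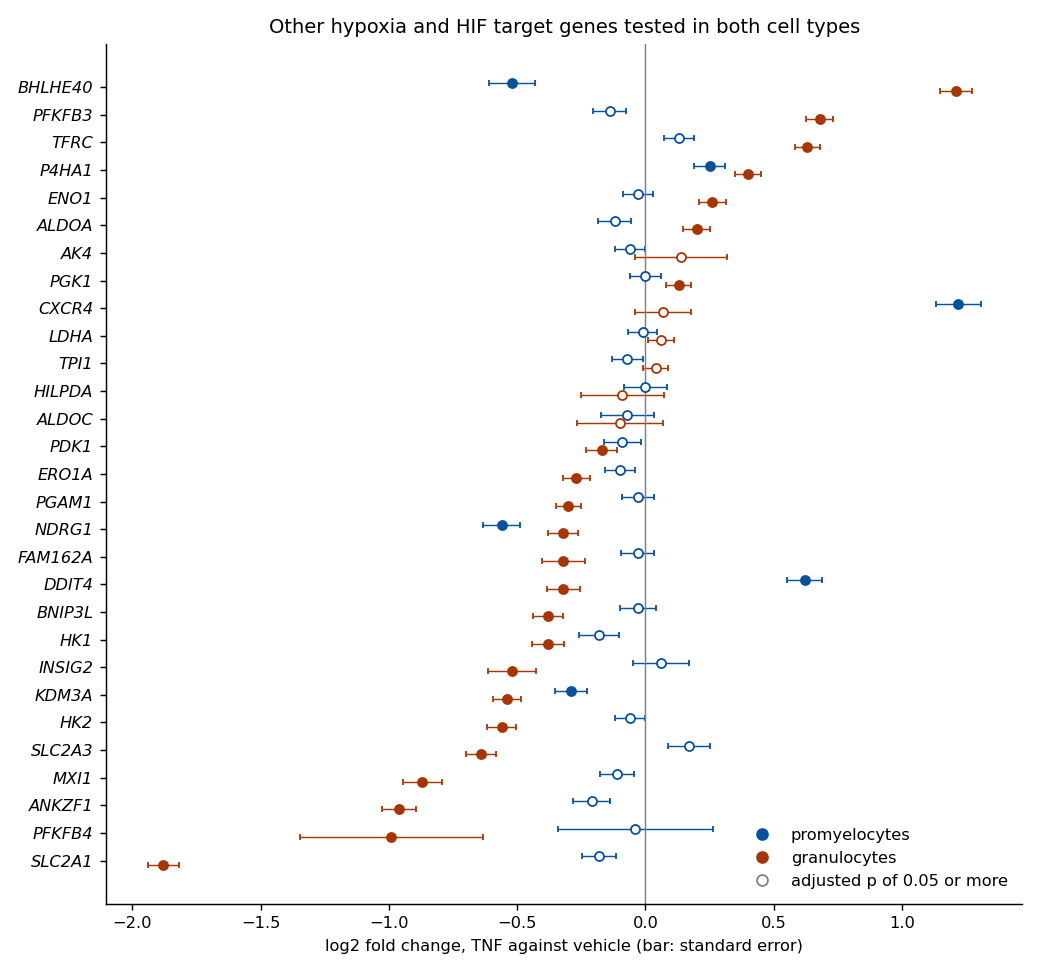
Log2 fold change of TNF-α against vehicle, with standard error, for the 29 other target genes tested in both cell types, ordered by the granulocyte value; filled circles passed an adjusted p of 0.05 in edgeR. SLC2A1 lies farthest left at -1.88, and BHLHE40 and DDIT4 changed in opposite directions in the 2 cell types.

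BHLHE40, a transcriptional repressor, and DDIT4, an inhibitor of mTORC1, passed the test in both cell types in opposite directions. BHLHE40 was 16.7 ± 0.649 CPM with vehicle and 11.5 ± 0.635 CPM with TNF-α in promyelocytes (log2 change -0.52, SE 0.0903, adjusted p = 0.000369), and 24.1 ± 0.603 and 56.3 ± 4.62 CPM in granulocytes (1.21, SE 0.0637, adjusted p = 1.68e-18). DDIT4 was 37.0 ± 3.32 and 55.7 ± 2.64 CPM in promyelocytes (0.62, SE 0.0688, adjusted p = 1.48e-06), and 39.4 ± 3.13 and 31.9 ± 1.12 CPM in granulocytes (-0.32, SE 0.065, adjusted p = 8.04e-05). CXCR4, a chemokine receptor, rose in promyelocytes from 19.3 ± 2.86 to 44.3 ± 2.79 CPM (1.22, SE 0.0871, adjusted p = 2.04e-09), and was 8.47 ± 0.551 and 9.05 ± 0.931 CPM in granulocytes.

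The genes whose log2 CPM (pseudocount 0.1) over the 12 libraries was most like that of HIF1A, of 18123 compared, were HIP1 (Pearson r = 0.9982), FAM107B (0.9972), ADAMTSL4-AS1 (0.9969), HERC1 (0.9967) and SAMSN1 (0.9964). This is a description over libraries that share 4 groups, and it carries no test. HIP1 had means of 7.68, 12.5, 37.7 and 89.6 CPM in promyelocytes with vehicle and TNF-α and in granulocytes with vehicle and TNF-α, the same order as HIF1A. Among the other members tested in both cell types, ADM (r = 0.9312) was most like HIF1A, and BNIP3 (-0.8814) was least like it. EPAS1 is not ranked, because its values in promyelocytes are set largely by the pseudocount.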

How the data were processed

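RNA of 12 libraries was analysed, 3 in each of 4 groups taken from the library labels. The authors removed ribosomal RNA, sequenced read pairs, aligned them to hg38 with STAR 2.5.3a and counted them on GENCODE release 27 genes with featureCounts 1.5.2, and they deposited raw counts per gene without normalization. Per the file headers, counting used primary, non-chimeric pairs with both ends aligned, on the reverse strand. Symbols were matched for 57577 of 58288 identifiers. Counts were tested with edgeR 4.0.16 (quasi-likelihood test, TMM, filterByExpr with a minimum count of 10 and a minimum total of 15), within each cell type and, for the difference of responses, over all 12 libraries, with Benjamini-Hochberg adjustment over all genes tested and a threshold of 0.05. CPM values use TMM factors of all 12 libraries, and CPM per kilobase divides by the deposited exon length. The named genes were all 10 members and, from each of the 2 pathway lists and each cell type, the 3 largest increases and decreases among called genes whose mean log2 CPM reached 1, every list gene called in opposite directions, and the 5 genes most like HIF1A. The members and lists were chosen with earlier results of these data known. Alternatives were DESeq2 1.42.0 and its size factors, no filter, GC and length offsets, a replicate block, 1 fit of all 12 libraries and leaving out each library. The scripts were tested on simulated data. Replicate libraries differed by more than sampling noise and were counted separately. Floors cover counting error only, whereas the SDs and standard errors also include variation between libraries. R 4.3.3 was used.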

Additional observations from a re-analysis of the deposited data

Results flagged for a closer look

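These results stood out because the TNF-α response differed between granulocytes and promyelocytes in the test of the difference itself (edgeR, adjusted p under 0.05; log2 response in granulocytes minus promyelocytes). Among the members the difference was 0.26 for HIF1A, -0.33 for ARNT, -0.59 for EGLN1, 0.89 for VEGFA and 3.16 for ADM. Among the named partners and regulators it was 0.31 for CITED2 and 1.05 for SIAH2. Among the named targets it was 1.76 for BHLHE40, 0.86 for PFKFB3, 0.54 for TFRC and 0.28 for NDRG1, and -1.66 for SLC2A1, -1.11 for CXCR4, -0.90 for DDIT4, -0.72 for MXI1 and -0.71 for ANKZF1. The 2 cell types were treated in separate experiments and at different cell densities, neither of which can be told apart from the cell type.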

How the results depend on the processing

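Of the fold changes of members and named genes under the alternatives, 770 kept direction and side of the threshold, 10 lost their call, 10 gained one and 8 changed sign. The cause was not tested. Differences of responses were compared under the alternatives for the members only, so that those flagged for the other named genes were not checked in this way. Sign changes were in differences of responses that passed no test: EPAS1 went from 0.09 to -0.03 with GC and length offsets and ranged from -1.72 to 3.56 when single libraries were left out, HIF1AN ranged from -0.04 to 0.01, and BNIP3 went to -0.01 without the filter. The count of partner, regulator and target genes called in promyelocytes went from 9 to 14 with GC and length offsets. The EGLN1 share in promyelocytes with vehicle went from 67.6% to 69.7% without division by length, and to 60.3% with the shared EGLN2 bases left out, an alternative chosen after seeing the data. Leaving out single libraries gave 2 members called in promyelocytes throughout, 7 to 8 in granulocytes and 5 to 6 for the difference, and 9 to 11 and 32 to 36 list genes. Of calls on the difference of responses, 58.9% were increases, against 48.4% with DESeq2 size factors. Replicate numbers did not pair the libraries (residual correlations of same-numbered libraries -0.146 to -0.0129); with the number as a replicate block, 2, 7 and 4 members were called in promyelocytes, in granulocytes and for the difference, and 9 and 33 list genes, without HIF1AN in granulocytes (adjusted p = 0.0718) and HIF1A for the difference (0.0527).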
